A study of Capra hircus with 10 samples.

Results

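The large heat shock proteins and the DNAJ proteins are the main protein folding machines of the cell. HSP70 proteins (genes HSPA) bind unfolded stretches of other proteins in a cycle driven by ATP, and DNAJ proteins deliver these clients and start the cycle through their J domain. HSP110 proteins (HSPH1 and HSPA4) release the nucleotide, HSP90 proteins take over clients such as kinases and hormone receptors at a late step, and the HSPD1 and HSPE1 chaperonin folds proteins inside mitochondria. The cytosol, the endoplasmic reticulum (ER) and the mitochondria each have their own HSP70 with its own J proteins, and the ER set serves secreted proteins, of which milk proteins and collagens are examples in the mammary gland.

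The members were chosen by gene symbol from the RefSeq annotation of the goat: HSPA, HSPD, HSPE, HSPH, HSP90, DNAJA, DNAJB and DNAJC genes, without the small heat shock proteins (HSPB). The rule found 56 of the 17197 genes in the table, 17 large heat shock proteins and 39 DNAJ genes. By their known location 25 were placed in the cytosol, 13 in the ER, 8 in mitochondria, 3 in the nucleus and 3 on vesicles or endosomes, and 4 were left in an unsettled class. Cellular component terms were present in the table for 34 of the 56. These terms named the ER for 5 members, all of the ER group, and mitochondria for 4, of which 3 were of the mitochondrial group and the other was DNAJC5. They named the cytosol or cytoplasm for only 3 of the 25 cytosol members, and for DNAJA3 of the mitochondrial group. DNAJB3, DNAJB7, DNAJB8, DNAJC5B and DNAJC5G had no row under their symbol and are not analysed here.

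Total RNA was sequenced from 3D cultures of mammary gland cells, taken from Lanshan dairy goats, in 10 libraries and 5 groups of 2. Blank cells carried no virus by their label, Lv5NC (genotype label 5NC) and Lv3NC (3NC) are the control viruses, OV55666 is virus-delivered overexpression of the long noncoding RNA lncRNA55666, and KD553 is its knockdown. Each manipulation was set against the control named just before it in the series text. The sources used here give neither the time after virus delivery nor the number of animals, and whether libraries of 1 group stem from different cultures or animals is not stated. The p-values therefore reflect the spread among these libraries alone, and that spread may be technical. No row is named for lncRNA55666, so its level is not analysed here.

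Fibroblast markers were high in these cells, and defining markers of epithelium were near 0. All 12 fibroblast markers were at 1 FPKM (fragments per kilobase of transcript, scaled to the mapped fragments of the library) or more in every library, with COL1A1 between 4641 and 5859, whereas the epithelial genes KRT8, EPCAM and CDH1 reached at most 0.02, 0.02 and 0.01. Other markers were present: ESR1 (5.15 to 12.03) and SPINT2 (3.23 to 7.11) of the luminal list, and ACTA2 (mean 859) and TAGLN (mean 805) of the basal list. Of the milk protein list 5 of 12 genes had a row, with MFGE8 at 82.2 to 117, SPP1 at 9.03 to 21.4, XDH at 0.21 to 1.84, and CSN3 and BTN1A1 at most 0.05 and 0.01. Of the luminal epithelial list 13 of 17 genes, of the endothelial list 8 of 9 and of the leukocyte list 7 of 9 were below 1 FPKM in every library. Between 10922 and 11163 genes per library had at least 1 FPKM. The depth in reads is unknown. The second Blank library stood apart, with a mean correlation of 0.983 with the other 9 libraries across genes (0.988 to 0.992 for the others) and 6.98% of its FPKM sum in a single gene (3.37% to 4.51% in the others).

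Mean levels of the members spanned from 383 FPKM (HSPA8) down to 0.003 (DNAJB13). Together they made up 0.448% to 0.508% of the FPKM sum of a library, and the 5 most abundant, HSPA8, HSP90B1, HSP90AB1, HSP90AA1 and HSPA5, held 60.7% to 64.7% of the members' sum. FPKM is scaled by transcript length, so levels can be compared between genes. In 31 of the 56 the level was at least 10 FPKM in every library. Of all members 47 had at least 1 FPKM in at least 2 libraries and entered the tests, 13 large heat shock proteins and 34 DNAJ genes.

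**Figure D1:**
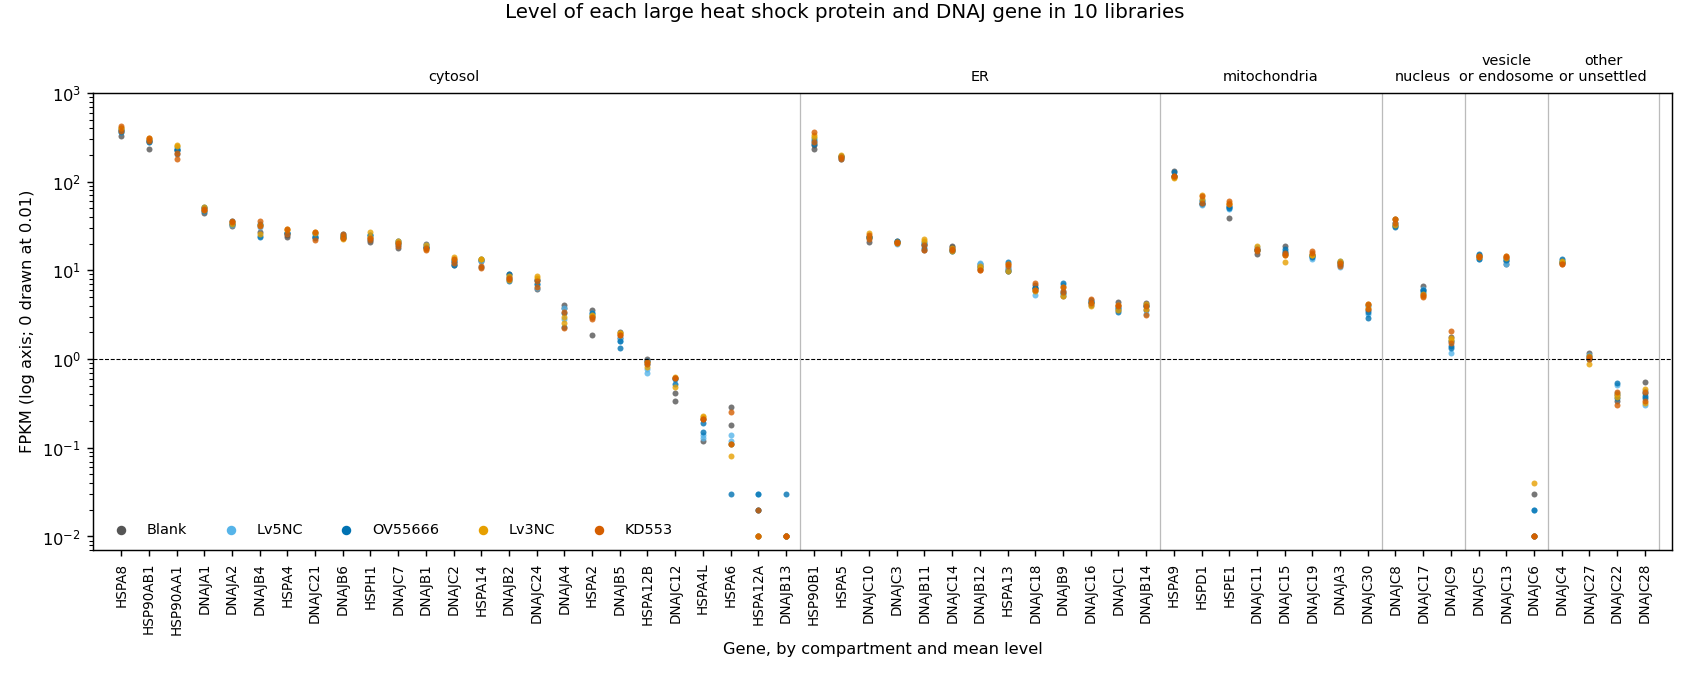
FPKM of the 56 members (log axis, values of 0 drawn at 0.01) in the 10 libraries, by compartment and mean level, 1 point per library and a colour for each group; the dashed line marks 1 FPKM. The points of members above the line lie close together, those of rare members such as HSPA6 do not, and all 13 ER and all 8 mitochondrial members are above the line.

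In the cytosol the constitutive HSP70 gene HSPA8 was the most abundant member of all. It was at 388 and 329 FPKM in the Blank libraries, 401.5 and 368 in Lv5NC, 381 and 359.6 in OV55666, 402 and 409 in Lv3NC and 371 and 421 in KD553. HSP90AB1, the constitutive cytosolic HSP90, was at 293 and 236 in Blank, 299 and 281 in Lv5NC, 288 and 283 in OV55666, 314 and 307 in Lv3NC and 292 and 314 in KD553. For both genes the second Blank library was the lowest of the 10, and the OV55666 and KD553 libraries overlapped those of their control viruses.

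The J proteins of the cytosol were each far below HSPA8. DNAJA1 (mean 48.7 FPKM) and DNAJA2 (mean 33.96), which bind clients themselves, and DNAJB4 (mean 29.8) led, ahead of DNAJB6 (mean 24.1), which keeps aggregation-prone proteins soluble, DNAJC7 (mean 20.2), an adaptor between HSP70 and HSP90, and DNAJB1 (mean 18.4), the classical heat-inducible HSP40. The HSP110 genes HSPA4 and HSPH1 had means of 26.8 and 23.7. DNAJC21, which acts in assembly of the large ribosomal subunit, had a mean of 24.9. HSPA14 and DNAJC2, which together form the ribosome-associated chaperone, were at nearly the same level (means 12.5 and 12.7).

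Several genes with an HSPA symbol were nearly silent. HSPA6, which is known to be strictly heat-inducible, ranged from 0.03 to 0.29 FPKM, HSPA4L from 0.12 to 0.23, HSPA12A from 0.01 to 0.03 and HSPA12B from 0.70 to 1.01. HSPA2 had a mean of 3.03, and the J protein genes DNAJB2, DNAJC24, DNAJA4 and DNAJB5 had means of 8.32, 7.32, 3.13 and 1.77. No row carries the symbol of the classical inducible gene HSPA1A or HSPA1B, but the row LOC102178315, whose protein description in the table is heat shock 70 kDa protein 1B, had 22.8 and 16.5 FPKM in Blank, 22.8 and 22.3 in Lv5NC, 23.3 and 24.3 in OV55666, 23.6 and 20.8 in Lv3NC and 23.3 and 18.03 in KD553. Both OV55666 libraries lay above both Lv5NC libraries, and KD553 overlapped Lv3NC. Genes of this kind have near-identical copies, and the sources used here do not say how shared reads were divided among copies.

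In the ER the HSP90 paralog HSP90B1 (GRP94, which folds integrins and other surface proteins) was above HSPA5 (BiP, the only classical HSP70 of the ER lumen) in every library. HSP90B1 was at 259 and 231 FPKM in Blank, 310.4 and 278 in Lv5NC, 267 and 292 in OV55666, 318 and 335 in Lv3NC and 279 and 368 in KD553. The KD553 libraries enclosed both Lv3NC values, and one of them was the highest of the 10. HSPA5 was steadier, at 192 and 197 in Blank, 191 and 191 in Lv5NC, 179 and 194 in OV55666, 200.2 and 188 in Lv3NC and 179 and 192 in KD553, and every pair of groups compared here overlapped except the control virus Lv5NC and Blank.

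The lumenal J proteins of the ER were of similar abundance to each other. DNAJC10, which also reduces disulfide bonds, was at 23.9 and 20.9 FPKM in Blank, 23.6 and 23.0 in Lv5NC, 23.9 and 23.7 in OV55666, 23.8 and 26.6 in Lv3NC and 22.6 and 24.9 in KD553. DNAJC3 had a mean of 20.8 and DNAJB11, which binds unfolded clients for BiP, 19.5. DNAJB9, a target of the unfolded protein response that recruits BiP to the sensor IRE1, was lower, with a mean of 5.97. HSPA13, a smaller HSP70 relative, had a mean of 10.8. The membrane-bound DNAJC14, DNAJB12, DNAJC18, DNAJC16, DNAJC1 and DNAJB14 had means of 17.4, 11.03, 6.20, 4.35, 3.87 and 3.81.

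In mitochondria HSPA9 (mortalin, the HSP70 of the import motor) led. It was at 112 and 131 FPKM in Blank, 117 and 116 in Lv5NC, 117 and 128 in OV55666, 109 and 113 in Lv3NC and 117 and 116 in KD553. Both KD553 values lay above both Lv3NC values, by less than the distance between the Blank libraries. The chaperonin gene HSPD1 was at 55.7 and 55.4 in Blank, 62.3 and 54.7 in Lv5NC, 60.4 and 57.8 in OV55666, 70.6 and 64.7 in Lv3NC and 57.5 and 69.9 in KD553. Its lid gene HSPE1 was at 51.8 and 39.3 in Blank, 52.3 and 49.9 in Lv5NC, 50.5 and 52.6 in OV55666, 58.3 and 56.7 in Lv3NC and 55.4 and 61.0 in KD553.

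HSPD1 and HSPE1, whose products work as a complex, stayed within a factor of 1.04 to 1.41 of each other in each library. The mitochondrial J proteins followed at lower levels, DNAJC11 of the inner membrane organizing complex with a mean of 17.3, the import motor genes DNAJC15 and DNAJC19 with 15.7 and 14.9, DNAJA3, which acts with HSPA9, with 12.04 and DNAJC30 with 3.71.

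**Figure D2:**
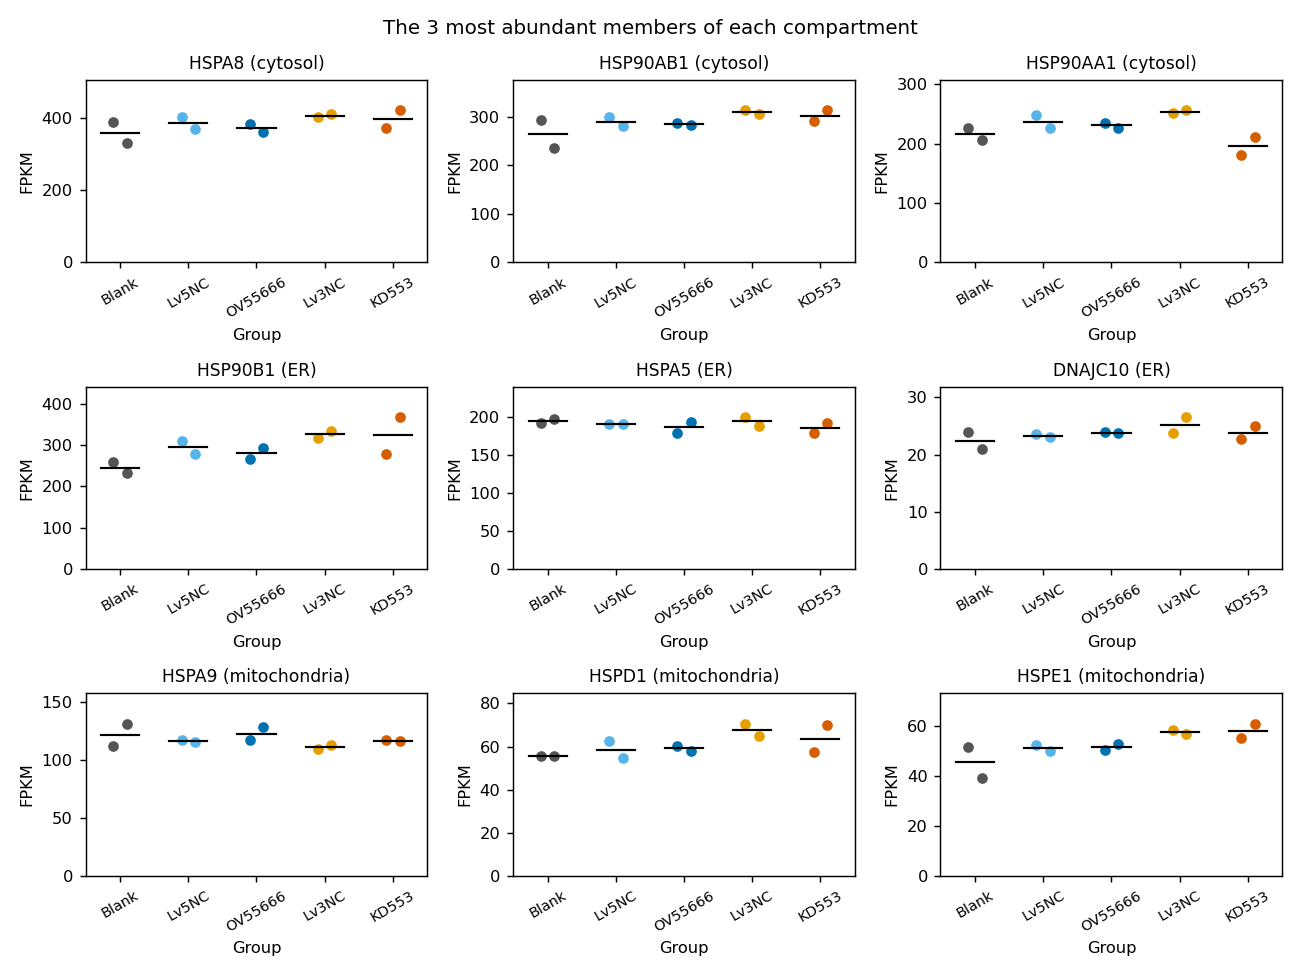
FPKM (linear axes from 0) of the 3 most abundant members of the cytosol, the ER and mitochondria; points are libraries and the bar is the mean of the 2 libraries of a group. HSP90AA1 is the panel in which both KD553 libraries lie well below both Lv3NC libraries.

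Summed over a compartment, the large heat shock proteins outweighed the DNAJ genes by a similar factor in each. Beside HSP70 genes, these sums hold the HSP90 genes in the cytosol and ER, and HSPD1 and HSPE1 in mitochondria. They are thus no ratio of HSP70 to its J proteins. The summed FPKM of large heat shock proteins was 3.73 to 4.50 times that of DNAJ genes in the cytosol, 3.82 to 4.89 times in the ER and 3.25 to 3.80 times in mitochondria. The DNAJ sums were the steadier part. Between the lowest and the highest library they differed by a factor of 1.09 in the cytosol, 1.08 in the ER and 1.11 in mitochondria, against 1.25, 1.30 and 1.13 for the large heat shock proteins. The highest ER sum was 570.6 FPKM, in the KD553 library numbered 2 in the table, and the other KD553 library had 469.9.

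**Figure D3:**
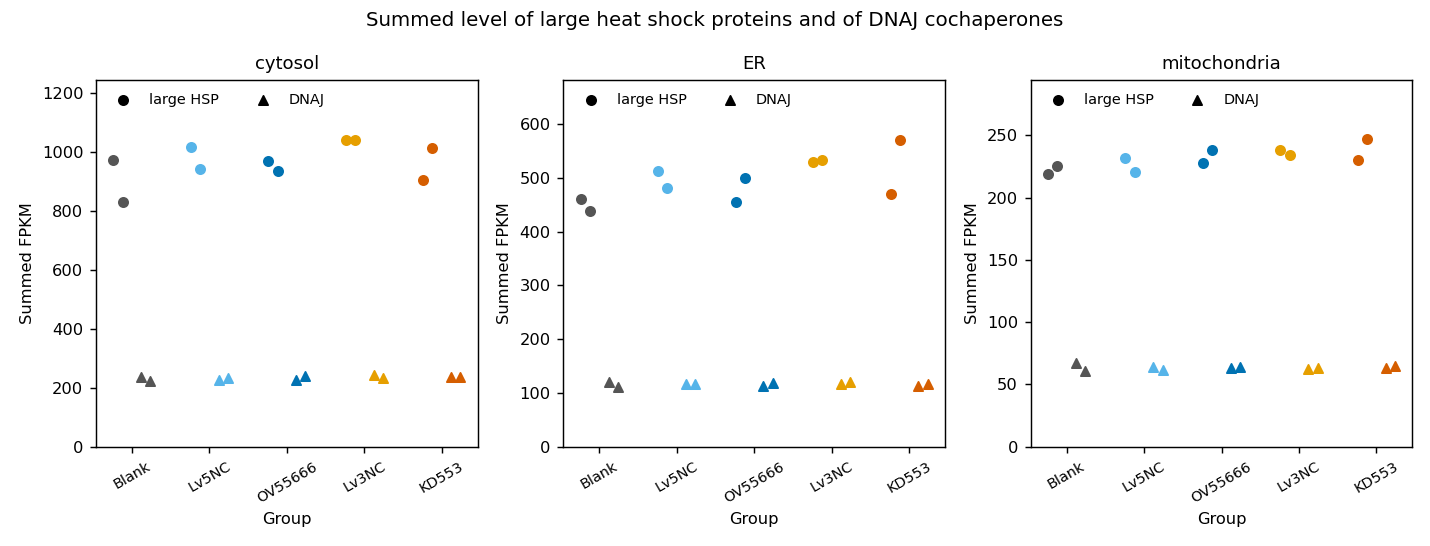
Summed FPKM of large heat shock proteins (circles) and of DNAJ genes (triangles) in the cytosol, the ER and mitochondria, 1 point per library. The cytosolic heat shock protein sums run from 831 to 1043 and the DNAJ sums from 223 to 243, with the lowest of either in the second Blank library.

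Among J proteins outside these compartments, DNAJC8, a nuclear protein of the spliceosome, had a mean of 34.4 FPKM, while the nuclear DNAJC17 and the histone chaperone DNAJC9 had 5.68 and 1.59. DNAJC5, a chaperone of secretory vesicles, and DNAJC13, which acts on endosomes, had 14.4 and 13.3. The clathrin uncoating factor DNAJC6, known from neurons, was at most at 0.04, and DNAJB13, of sperm flagella, was listed at 0 in 9 libraries. In the unsettled class DNAJC4 had a mean of 12.5, DNAJC27 1.04, DNAJC22 0.406 and DNAJC28 0.400. With DNAJC12 (mean 0.545), which assists aromatic amino acid hydroxylases, and the nearly silent HSPA genes named above, 9 members stayed below the filter.

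The first comparison asked whether raising lncRNA55666 changes these genes. With limma (a linear model with moderated variances) on log2(FPKM + 1), adjusted by Benjamini-Hochberg over the 11340 genes tested, 0 of 47 members passed at an adjusted p under 0.05 in OV55666 against Lv5NC, where 0.0% of all genes passed. Unadjusted, 1 member and 166 genes had p under 0.05. The estimated log2 changes of members lay between −0.17 and 0.18 with a median of 0.01, against a median of 0.02 over all genes. By compartment the medians were −0.02 in the cytosol (7 of 19 above 0), 0.01 in the ER (8 of 13) and 0.03 in mitochondria (6 of 8).

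The 95% intervals bound how far a change could have gone unseen. For all 47 members the interval of the overexpression effect stayed within 1 on the log2 scale to either side, and for 46 within 0.5, the exception being DNAJA4 with a lower bound of −0.57. The scale understates changes of genes with low values. Both OV55666 libraries lay above both Lv5NC libraries for 3 members (17.7% of all genes) and below for 6 (9.07%), shares of 6.38% and 12.8%.

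The 4 members with the smallest p in this comparison were J proteins. DNAJB12, an ER membrane protein that works with cytosolic HSP70 in the disposal of misfolded proteins, was at 10.3 and 10.9 FPKM in OV55666 against 11.8 and 12.3 in Lv5NC (log2 −0.17 ± 0.07, SE). It was at 11.8 and 11.1 in Blank and 10.7 and 11.2 in Lv3NC. Both OV55666 libraries were below both Lv5NC and both Blank libraries but overlapped Lv3NC, and the adjusted p was 1.0. DNAJC18, also of the ER membrane, was at 6.36 in both OV55666 libraries against 5.25 and 5.79 (log2 0.18 ± 0.09). Here the control was the low group, since the Blank libraries were at 6.83 and 6.39, Lv3NC at 5.84 and 6.02 and KD553 at 7.13 and 6.01, and against Blank the sign turned (log2 −0.05). DNAJC30, a mitochondrial protein tied to the respiratory chain, was at 3.37 and 2.92 against 3.97 and 3.26 (log2 −0.15 ± 0.12), with 4.03 and 3.61 in Blank, 4.23 and 3.79 in Lv3NC and 3.64 and 4.23 in KD553. For DNAJC30 the groups overlapped. DNAJB11 was at 18 and 19.7 against 21.1 and 20.1 (log2 −0.13 ± 0.10). Single libraries weighed on these estimates. Without the first Lv5NC library DNAJC18 had 0.12 and DNAJC30 −0.04, without the second DNAJC30 had −0.26, without the first OV55666 library DNAJC30 had −0.23 and DNAJB11 −0.07, and without the second DNAJC30 had −0.07.

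The second comparison asked the same of lowering lncRNA55666. In KD553 against Lv3NC, limma again called 0 of 47 members, where 0.0705% of all genes were called, and 3 members and 853 genes had an unadjusted p under 0.05. The 3 are HSP90AA1, HSPA14 and DNAJB11, each with lower values in the knockdown. Leaving out the KD553 library in the column numbered 1 gave log2 changes of −0.26 for HSP90AA1, −0.30 for HSPA14 and −0.17 for DNAJB11. Leaving out the one numbered 2 gave −0.48, −0.23 and −0.36. With all libraries, the share of all genes at an unadjusted p under 0.05 was 7.52%, against 6.38% (3 of 47) of members. Member changes lay between −0.37 and 0.23 on the log2 scale, with a median of −0.03 against 0.003 over all genes. In the cytosol 4 of 19 were above 0 (median −0.05), in the ER 7 of 13 (median 0.01) and in mitochondria 4 of 8 (median −0.004).

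All 47 intervals of the knockdown effect lay within 1 on the log2 scale, and 45 within 0.5. Both KD553 libraries were below both Lv3NC libraries for 11 members (18.3% of all genes) and above for 4 (19.3%), shares of 23.4% and 8.51%. The sums of some marker lists also differed between these groups, and their part in the member values was not tested. The fibroblast list, 12 of 12 expressed, summed to 22384 to 22626 FPKM in KD553 and 20644 to 22230 in Lv3NC. The basal list (8 with a row, 4 below 1 FPKM in every library, TP63 at most 0.05) summed to 1974 to 2080 against 1682 to 1852, and the luminal list to 17.5 to 17.9 against 13.9 to 15.2. The endothelial list summed to 29.8 to 31.7 against 24.5 to 26.3, with PECAM1 at most 0.09, and the leukocyte list to 29.5 to 36.5 against 23.2 to 25.3, with PTPRC at most 0.01. Single genes made up most of these sums, ERG (mean 26.2 over all libraries) of the endothelial and CD14 (mean 28.8) of the leukocyte list. Most of the luminal sum was ESR1 (mean 9.03) and SPINT2 (mean 4.88). The milk protein list (122.68 to 132.84 against 117.81 to 123.4) and the adipocyte list (6.96 to 7.8 against 6.48 to 7.49) overlapped. In bulk RNA, a changed mix of cells and a changed level per cell cannot be told apart.

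**Figure D4:**
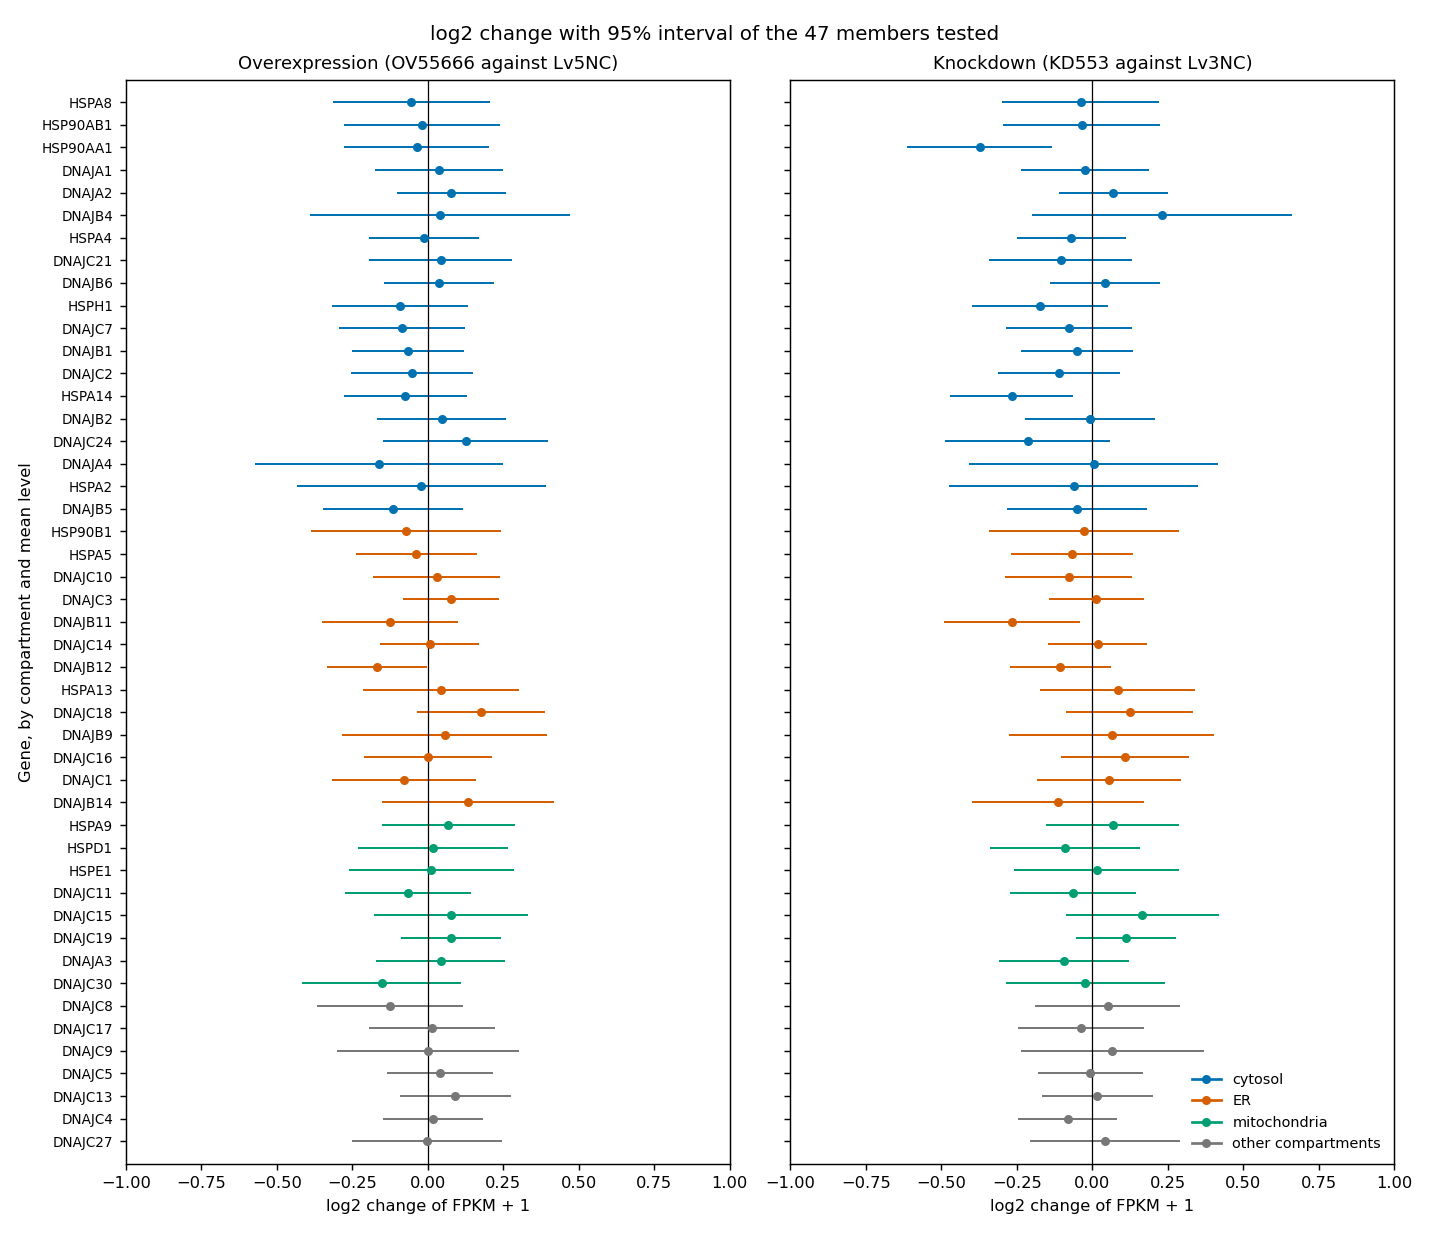
log2 change of FPKM + 1 (points) with 95% interval (lines) of the 47 members tested, for overexpression at left and knockdown at right, coloured by compartment. Intervals of HSP90AA1, HSPA14 and DNAJB11 at right and of DNAJB12 at left do not reach 0, and no member passed after adjustment over all genes.

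HSP90AA1, the inducible cytosolic HSP90, had the smallest p of the members. It was at 181 and 211 FPKM in KD553, 251 and 257 in Lv3NC, 248 and 226 in Lv5NC, 235.5 and 226 in OV55666 and 227 and 206 in Blank. Both knockdown libraries were below all 6 libraries with another virus, and only the second Blank library fell between them. The log2 change was −0.37 ± 0.10 (SE; limma adjusted p = 0.405), with an interval from −0.61 to −0.14. Against Blank instead of Lv3NC the difference shrank to −0.14, and against Lv5NC it was −0.27.

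The other cytosolic HSP90, HSP90AB1, had overlapping values in KD553 and Lv3NC. Its log2 change was −0.03 ± 0.11, and the ratio of HSP90AA1 to HSP90AB1 within a library, which no scaling of libraries can alter, was lower in the knockdown. That ratio was 0.622 and 0.673 in KD553, 0.801 and 0.837 in Lv3NC, 0.829 and 0.806 in Lv5NC, 0.816 and 0.799 in OV55666 and 0.775 and 0.873 in Blank. The KD553 libraries were the lowest of the 10. The ratio was picked after the values had been seen, and an exact permutation test of KD553 against Lv3NC (two-sided, n = 2 and 2) gave p = 0.333, the smallest value this design allows.

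**Figure D5:**
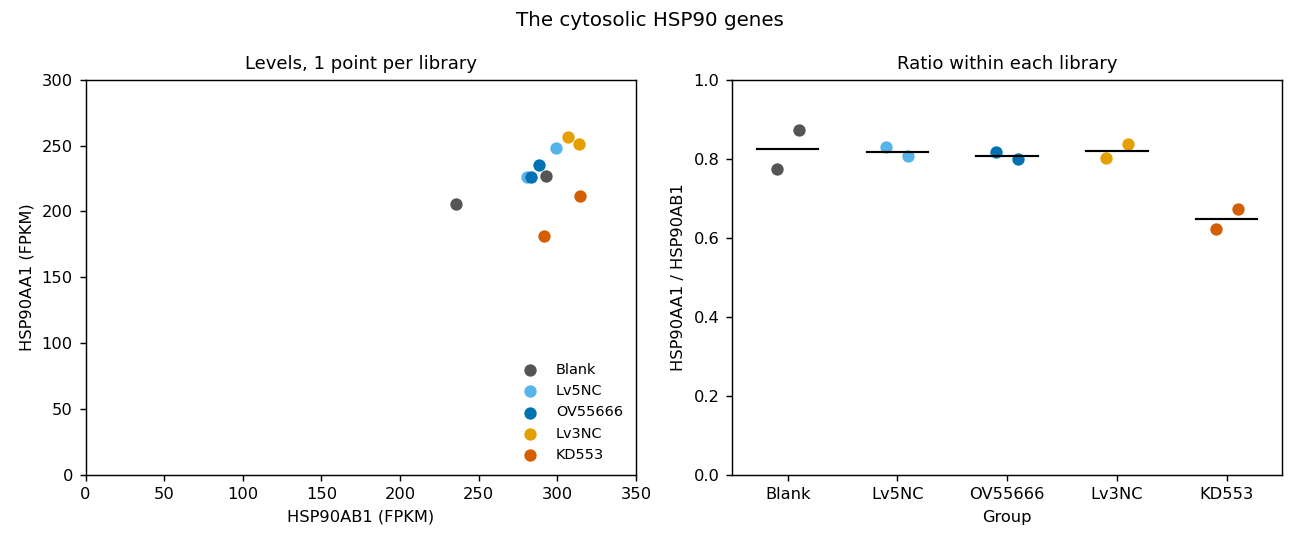
HSP90AA1 against HSP90AB1 in FPKM (left, linear axes from 0) and their ratio in each library (right, with the mean of each group as a bar). The 2 KD553 libraries have ratios of 0.622 and 0.673, and the other 8 lie between 0.775 and 0.873.

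HSPA14, the HSP70 of the ribosome-associated chaperone, was at 11.3 and 10.7 FPKM in KD553 and 13.4 and 13.3 in Lv3NC (log2 −0.27 ± 0.09; limma adjusted p = 0.51). The knockdown libraries did not overlap with Lv3NC, Lv5NC (13.04 and 12.7) or Blank (12.8 and 12.9), but the second OV55666 library, at 11.1, fell among them (the first was at 13.3). Its partner DNAJC2 was at 12.3 and 13.3 in KD553 against 14.1 and 13.6 in Lv3NC (log2 −0.11 ± 0.09). These did not overlap either, as for 18.3% of all genes in this direction. Lv3NC was the highest group for DNAJC2. Its knockdown libraries overlapped Blank (12.6 and 11.4), Lv5NC (13.2 and 11.9) and OV55666 (12.7 and 11.5).

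DNAJB11, the cofactor of BiP, was at 16.8 and 19.3 in KD553 and 21.3 and 22.6 in Lv3NC (log2 −0.27 ± 0.10; limma adjusted p = 0.574). Lv3NC was its highest group, since Blank was at 19.5 and 16.9, and against Blank the change was −0.01. Without the first KD553 library in column order it was −0.17. DNAJC24, which supports diphthamide synthesis on elongation factor 2, was at 6.56 and 7.68 against 8.12 and 8.68 (log2 −0.21 ± 0.12), and HSPH1 at 21.8 and 22.9 against 27.3 and 23.5 (log2 −0.17 ± 0.10). In Blank, Lv5NC and OV55666, DNAJC24 was at 7.86 and 6.13, at 7 and 6.36 and at 7.80 and 6.96, and HSPH1 at 22.99 and 20.9, at 25.3 and 25.1 and at 22.02 and 25.2, so the knockdown libraries of either gene fell within the range of other groups. DNAJC24 moved to −0.11 without the first KD553 library, and HSPH1 to −0.07 or −0.28 without the first or the second Lv3NC library. For both, the direction turned with Blank as the control (log2 0.03 for each).

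A few members stood at the edge of all 10 libraries in the knockdown. Both KD553 libraries were the lowest for DNAJB12 (9.99 and 10.2 FPKM, the next being 10.3 in OV55666) and DNAJC4 (11.9 and 11.8, the next 12.2 in Blank), as for 3.79% of all genes. They were the highest for DNAJC19, the import motor gene (16.6 and 15.9, the next 15.1 in OV55666), as for 5.94% of all genes. These shares are those of any gene, and none of the 3 members had an unadjusted p under 0.05 in KD553 against Lv3NC.

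The difference between the overexpression and the knockdown effect was tested as a single contrast. limma called 0 of 47 members and 0.0% of all genes, with 1 member (HSP90AA1) and 386 genes at an unadjusted p under 0.05. For HSP90AA1 the overexpression effect was −0.04 ± 0.10 and the knockdown effect −0.37 ± 0.10, a difference of 0.34 with an interval from 0.002 to 0.67 (limma adjusted p = 1.0). Neither manipulation therefore had a member effect shown to differ from the other.

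Each control virus was also set against Blank, to see what carrying a virus went with. In Lv5NC limma called 0 of 47 members (0.291% of all genes), with 1 member (2.13%, against 12.6% of all genes) at an unadjusted p under 0.05. In Lv3NC it called 0 of 47 (0.132%), with 8 members at that level (17.0%, against 14.8% of all genes, so near the background). The second Blank library weighed on these values. Without it the count at an unadjusted p under 0.05 in Lv3NC was 2 (8.50% of all genes), and without the first Blank library it was 14 (21.6% of all genes), when HSPE1 passed in Lv3NC (log2 0.54, adjusted p = 0.0304) and HSPA2 in Lv5NC (log2 0.55, adjusted p = 0.0422). Leaving out either Lv3NC library gave 3 or 4 (9.65% and 8.69% of all genes).

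In Lv3NC most large heat shock proteins had higher values than in Blank, and the J proteins were divided. Both Lv3NC libraries lay above both Blank libraries for 9 of the 13 large heat shock proteins and 6 of the 34 DNAJ genes, against 24.3% of all genes, and medians of the log2 change were 0.20 and −0.0006, against 0.02 over all genes. Those 9 large heat shock proteins thus lay above each Blank library taken alone. Single Blank libraries weighed on the median of all members tested, 34 of which are DNAJ genes. No such median was taken for the large heat shock proteins alone. Leaving out the second Blank library brought the median of all members tested from 0.0509 to −0.0018, and that of all genes to −0.0323. Leaving out the first gave 0.0946 and 0.0659. HSP90B1 (log2 0.41 ± 0.14), HSPE1 (0.34 ± 0.12), HSPD1 (0.28 ± 0.11) and HSPA4 (0.22 ± 0.08) had the smallest p of the 13 (adjusted p between 0.235 and 0.29). HSPA5 (−0.0038 ± 0.09) and HSPA9 (−0.12 ± 0.10), the HSP70 genes of the ER and mitochondria, had estimates below 0. No set of genes was tested as a set. The endothelial list, mostly ERG, summed to 24.5 to 26.3 in Lv3NC and 19.3 to 21.4 in Blank, and the basal list to 1682 to 1852 and 1877 to 3088. The other marker lists overlapped between these groups. The part of any list in these values was not tested. In Lv5NC against Blank the large heat shock proteins had a median of 0.11, with both libraries above both Blank libraries in 3 of 13 (15.5% of all genes).

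These comparisons share libraries. Lv3NC is the control of the knockdown, and the values of its cytosolic heat shock proteins were above Blank in 7 of 7 while those of KD553 were below Lv3NC in 7 of 7, with medians of 0.20 and −0.07. Over all genes, 53.7% were above 0 in Lv3NC against Blank and 50.9% in KD553 against Lv3NC. The same Lv3NC libraries enter both. The other arm looked alike: 6 of the 7 were above 0 in Lv5NC against Blank (median 0.13), and 7 of 7 below 0 in OV55666 against Lv5NC (median −0.04), with Lv5NC in both. Of all genes, 47.9% and 58.7% were above 0 in these comparisons. The large heat shock proteins of the other compartments were divided. In KD553 against Lv3NC, 1 of 3 in the ER and 2 of 3 in mitochondria were above 0, and in OV55666 against Lv5NC 1 of 3 and 3 of 3.

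The other genes of the folding pathways gave no call in either manipulation. These lists, too, were chosen with results known. Over all genes, 1.46% had an unadjusted p under 0.05 in OV55666 and 7.52% in KD553. Of 22 cytosolic cochaperones of HSP70 and HSP90, 0 passed in limma, with 9 above 0 in OV55666 (median log2 −0.04) and 6 in KD553 (median −0.05), and 0 and 2 had an unadjusted p under 0.05. STIP1, the adaptor that passes clients from HSP70 to HSP90, was at 32.8 and 38.4 FPKM in KD553 against 41.8 and 41.6 (log2 −0.23 ± 0.09, adjusted p = 0.626). The phosphatase PPP5C was at 15.0 and 15.6 against 19.2 and 17.0. In Blank, STIP1 was at 41.4 and 38.05 and PPP5C at 15.32 and 14.85, so the knockdown overlapped Blank for either gene. Of the 14 genes of the CCT chaperonin and prefoldin, 0 passed, with 4 above 0 in KD553 (median −0.06) and 7 in OV55666 (median 0.01), and 1 and 0 had an unadjusted p under 0.05. PFDN4 was at 12.8 and 12.99 in KD553 against 15.2 and 15.3 in Lv3NC, and CCT7 at 79.8 and 86.0 against 95.1 and 93.6. Blank was at 14.4 and 13.6 for PFDN4, above both knockdown libraries, and at 84.7 and 78.8 for CCT7, overlapping them.

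Of 28 tested genes of ER folding and the unfolded protein response, 0 passed, with 13 above 0 in KD553 (median −0.01) and 15 in OV55666 (median 0.0013), and 4 and 2 had an unadjusted p under 0.05. Among them SDF2L1, a partner of DNAJB11 in the ER lumen, was at 23.98 and 21.35 FPKM in KD553, 28.9 and 28.6 in Lv3NC and 23.5 and 21.4 in Blank (KD553 against Lv3NC, log2 −0.33 ± 0.09; adjusted p = 0.364). As with DNAJB11, the knockdown lay near Blank and Lv3NC above it. SDF2L1 was at 30.1 and 27.2 in Lv5NC and 24.8 and 24.3 in OV55666, so overexpression too lay below its control virus. CRELD2, a gene of the unfolded protein response, was at 12.1 and 13.4 in KD553, 16.4 and 15.9 in Lv3NC and 15.5 and 13.5 in Blank. Of 14 tested genes of mitochondrial folding and quality control, 0 passed, with 3 above 0 in KD553 (median −0.10) and 9 in OV55666 (median 0.01), and 2 and 1 had an unadjusted p under 0.05. Both KD553 libraries lay below both Lv3NC libraries for 8 of the 14 (18.3% of all genes). In the other lists this held for 7 of the 22 cochaperones, 3 of the 14 CCT and prefoldin genes and 7 of the 28 ER genes. TRAP1, the mitochondrial HSP90, was at 16.4 and 16.4 in KD553 against 20.1 and 19.9 in Lv3NC, and the protease SPG7 at 11.1 and 9.66 against 12.8 and 12.7. Blank was at 18.8 and 15.7 for TRAP1, enclosing both knockdown values, and at 13.5 and 11.9 for SPG7, above them.

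The transcription factors of the heat shock response were present in all groups. HSF1, its master regulator, ranged from 19.3 to 24.4 FPKM, HSF2 from 6.25 to 8.60 and the inhibitor HSBP1 from 24.1 to 29.8. HSF1 was at 22.2 and 22.7 in KD553 against 21.2 and 19.3 in Lv3NC (log2 0.15 ± 0.10, adjusted p = 0.811). HSF4 and HSF5 were below 1 FPKM in every library. Of the 3 tested genes of this list 0 passed in either manipulation, and 0 had an unadjusted p under 0.05.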

How the data were processed

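The authors deposited 1 table of gene expression in FPKM, rounded to 2 decimals, per the file headers. Which aligner, quantifier and build they used is not given in the sources used here. FPKM summed to 440565 to 460423 per library. Read depth cannot be taken from these values. The smallest steps of low genes differed little between libraries (mean relative step 0.981 to 1.02), a rough sign of similar depth. Symbols came from RefSeq gene identifiers of assembly ARS1.2, which 16658 of 17197 rows matched.

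The KD553 columns were tied to their group only, because titles and descriptions number these samples differently. Genes with at least 1 FPKM in at least 2 libraries (11340) were analysed as log2(FPKM + 1) with limma 3.58.1 in R 4.3.3 (a mean for each group, trend and robust options, all 10 libraries in a single fit with 5 residual degrees of freedom). p-values are two-sided and were adjusted over all genes tested. The fit was tested on simulated data. Error is the SE of the log2 change.

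The members, their compartments and the gene lists were chosen with earlier results of these data known. Values in every library are given for the 3 most abundant members of each main compartment and the 4 (OV55666) or 5 (KD553) members with the smallest p, and up to 2 genes of each other list were named by smallest p in KD553. Other members are given by mean or range, and those singled out otherwise were chosen after their values were seen. Alternatives were another pseudocount (0.1), no filter, scaling, other controls, fits of fewer groups or libraries and replicate blocks.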

Additional observations from a re-analysis of the deposited data

How the results depend on the processing

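No member passed in either manipulation or in their difference under any alternative run, among them leaving out each library, other controls and, added after seeing the data, leaving out the second Blank library. Against Blank, leaving out each library gave 0 to 1 member for either control virus, the 1 being HSPA2 in Lv5NC and HSPE1 in Lv3NC, without the first Blank library. With Blank as the control the overexpression median of the cytosol was 0.0686, and the log2 changes of DNAJC18 (−0.0476) and DNAJB11 (0.0494) turned. For the knockdown, Blank as the control gave medians of 0.0478 in the cytosol and 0.0453 in mitochondria, 0.0274 for DNAJC24 and 0.0253 for HSPH1. With Lv5NC as its control these were 0.0166 (cytosol), 0.0493 (mitochondria) and 0.0782 (DNAJC24). With both control viruses the overexpression median of mitochondria was −0.0294. Leaving out each library moved the medians of overexpression from −0.0963 to 0.0228 in the ER and from −0.0431 to 0.0437 in mitochondria, and those of the knockdown from −0.0264 to 0.0096 and from −0.0792 to 0.0621. In the cytosol they ran from −0.0343 to 0.0075 (overexpression, −0.0211 as reported) and from −0.0967 to −0.0361 (knockdown, −0.0513 as reported). The cause was not tested. Calls over all genes are given here for fits with both libraries of each group. Against a control virus they ranged from 0 to 11 in KD553 (8 as reported) and from 0 to 1 in OV55666 (0). With Blank as the control, which is another comparison, they were 286 in KD553 and 43 in OV55666. For the control viruses against Blank they ranged from 0 to 40 in Lv5NC (33) and from 0 to 56 in Lv3NC (15).

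The replicate block called 0 members in each comparison, also with the KD553 numbers exchanged. Deviations of same-numbered libraries correlated at 0.503 between Lv5NC and OV55666 and at 0.444 between Lv3NC and KD553, and at −0.383 to −0.622 across these arms. The labels name no shared culture or day, and each arm has only 2 number pairs, so the numbers were not taken as pairs. A replicate block within each manipulation, added after seeing the data, called 0 members in either manipulation and in their difference, and 1 and 11 of all genes in OV55666 and KD553. With 2 libraries a group and unknown depth, changes smaller than the intervals were not detectable, and larger ones could also stay uncalled after adjustment. HSP90AA1 in KD553 against Lv3NC had an interval from −0.61 to −0.14 but a limma adjusted p of 0.405.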

Other observations

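By the root mean square of log2 differences within groups, DNAJB4, HSPA2, DNAJA4 and DNAJB9 varied most among the tested members, ahead of the abundant HSP90B1. For HSPA2 this came mainly from the Blank libraries (3.61 and 1.88 FPKM). DNAJB4 was at 24.5 and 30.5 FPKM in the Lv5NC libraries, 23.6 and 33.5 in OV55666, 32.6 and 25.6 in Lv3NC and 36.5 and 31.8 in KD553. DNAJA4 was at 2.82 and 3.73, 2.32 and 3.35, 3.02 and 2.57, and 3.43 and 2.26 in the same order, and DNAJB9 at 5.44 and 6.82, 5.58 and 7.28, 6.43 and 5.10, and 6.46 and 5.64. In these 3 J proteins the second library was the higher in Lv5NC and OV55666, and the first in Lv3NC and KD553. That order held for 8 of the 47 tested members (17.0%) and for 15.96% of all genes, and the opposite order for 10 members (21.3%) and 17.1% of all genes. The pattern was noticed after the values had been seen, and its cause was not tested.

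The balance between the large ER chaperones also varied between libraries. HSP90B1 was 1.17 to 1.35 times HSPA5 in the Blank libraries and 1.45 to 1.92 times in the 8 libraries with a virus, with the highest ratio in a KD553 library (1.92) and the next in an Lv3NC library (1.78). This ratio was picked after the values had been seen and was not tested.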
